A study of Macaca mulatta with 12 samples.

Results

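The T cell receptor beta chain (TRB) was sequenced in blood mononuclear cells of rhesus macaques, and 4 libraries labelled as baseline were compared with all 8 libraries made after infusion of apoptotic donor leukocytes (ADLs), the 12 libraries of the series. ADLs are white blood cells of the donor that were made to undergo apoptosis. The libraries were placed in their groups by the time period in their labels, and every library of the series was used. The features compared were the length and reading frame of the junction, the J cluster, the assigned D segment and the V family.

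The post-infusion libraries carried the names Amazo, Nebula and Rocket, and these monkeys also received transient immunosuppression with an anti-CD40 antibody, rapamycin, tocilizumab and etanercept per the study's methods. They were drawn on day -5 (n = 3, 2 days after the first ADL infusion), day -4 (n = 3, 3 days after it), day 0 (Nebula, n = 1, 7 days after it) and day +3 (Amazo, n = 1, 2 days after the second infusion). The study's methods speak of sampling before and after infusion in these monkeys. The baseline libraries carried animal codes that differ from those the study's tables pair with Amazo, Nebula and Rocket, so they were not treated as earlier samples of the same animals. Age, sex and strain are not given in the labels. TRB transcripts were the only transcripts measured, so the labelled cell type could not be checked against other markers.

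A beta chain gene is assembled in each developing T cell by joining 1 V, 1 D and 1 J segment, with bases removed and added at random at each joint. The joined stretch, complementarity-determining region 3 (CDR3), runs from a conserved cysteine in V to a conserved phenylalanine in J and makes the main contact with the peptide held by the MHC molecule. Segment TRBD1 lies upstream of the TRBJ1 cluster, and TRBD2 lies between the TRBJ1 and TRBJ2 clusters, so TRBD1 can join either cluster by deletion whereas TRBD2 normally joins TRBJ2. A joint that shifts the reading frame or creates a stop codon gives no receptor. Such transcripts are largely degraded, so most CDR3s read from RNA are productive.

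A clonotype is 1 CDR3 nucleotide sequence. Baseline 1 to 4 had 49, 43, 43 and 30 clonotypes, from 73, 63, 74 and 70 counts. The post-infusion libraries held 42695 to 556954 counts. At baseline depth, 1 count was 1.35% to 1.59% of a library, and any share below 3 counts (4.05% to 4.76%) was not measurable in a single baseline library. The kind of library also followed the groups. The median V alignment score, which grows with the matched stretch of V, ran from 247 to 298 in the baseline libraries and from 1213 to 1288 in the others, and V hits were tied between V genes for 31.1% to 38.4% of counts against 6.32% to 13.4%. Infusion, immunosuppression, animal and kind of library therefore cannot be told apart in any difference between the groups.

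The post-infusion libraries were also not 8 independent samples. The libraries labelled Amazo day -5 and day +3 shared their repertoire with both Rocket libraries, the 3 Nebula libraries shared another, and the library labelled Amazo day -4 stood alone. Summing the smaller of the 2 shares of each clonotype, pairs within these sets had 15.0% to 52.4% of their counts in common, and the other 19 pairs had 0.0392% to 0.704%. Whether samples were exchanged is not given in the sources used here. Values after infusion were averaged within each animal name before testing, giving 4 against 3, which leaves Amazo and Rocket dependent through their shared clones. They were also compared as 8 separate libraries and as 1 value per shared repertoire.

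The largest clonotypes show the kind of junction that was compared. Each is given 5′ to 3′ with the bases assigned to V and J in lower case and the bases between them, which hold any D segment and the added bases, in capitals. In baseline 1, 2 and 4 another clonotype had the same count, and the one listed first is shown.
Baseline 1, TRBV24-1 and TRBJ2-3, 4 of 73 counts: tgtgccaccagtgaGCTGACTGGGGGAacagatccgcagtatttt
Baseline 2, TRBV23-1 and TRBJ2-3, 3 of 63 counts: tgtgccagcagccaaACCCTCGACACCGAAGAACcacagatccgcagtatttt
Baseline 3, TRBV7-10 and TRBJ1-3, 8 of 74 counts: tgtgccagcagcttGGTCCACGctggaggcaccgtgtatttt
Baseline 4, TRBV24-1 and TRBJ1-1, 8 of 70 counts: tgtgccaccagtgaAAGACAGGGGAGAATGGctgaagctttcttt
Amazo day -5, TRBV9 and TRBJ2-3, 4.12% of counts: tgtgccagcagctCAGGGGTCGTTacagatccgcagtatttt
Nebula day -5, TRBV6-3 and TRBJ1-1, 1.88% of counts: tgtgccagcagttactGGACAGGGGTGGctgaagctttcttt
Rocket day -5, TRBV29-1 and TRBJ2-1, 8.35% of counts: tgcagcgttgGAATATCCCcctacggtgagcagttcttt
These 7 CDR3s were 45, 53, 42, 45, 42, 42 and 39 nucleotides long. Their middle part took 13, 19, 8, 17, 11, 12 and 9 nucleotides, in the same order. The baseline 2 clonotype was the single one of the 7 whose length is not a multiple of 3, so it is out of frame, and no D segment was assigned to it.

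Most CDR3s had the same few lengths before and after infusion. The lengths of 39, 42 and 45 nucleotides together took 79.5%, 63.5%, 74.3% and 62.9% of counts in baseline 1 to 4, and 59.1% to 63.9% in the 8 post-infusion libraries. The median length was 42, 42, 42 and 45 nucleotides at baseline and 42 in each post-infusion library. The plot of CDR3 length shows peaks 3 nucleotides apart in both groups, as in-frame junctions give.

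**Figure D1:**
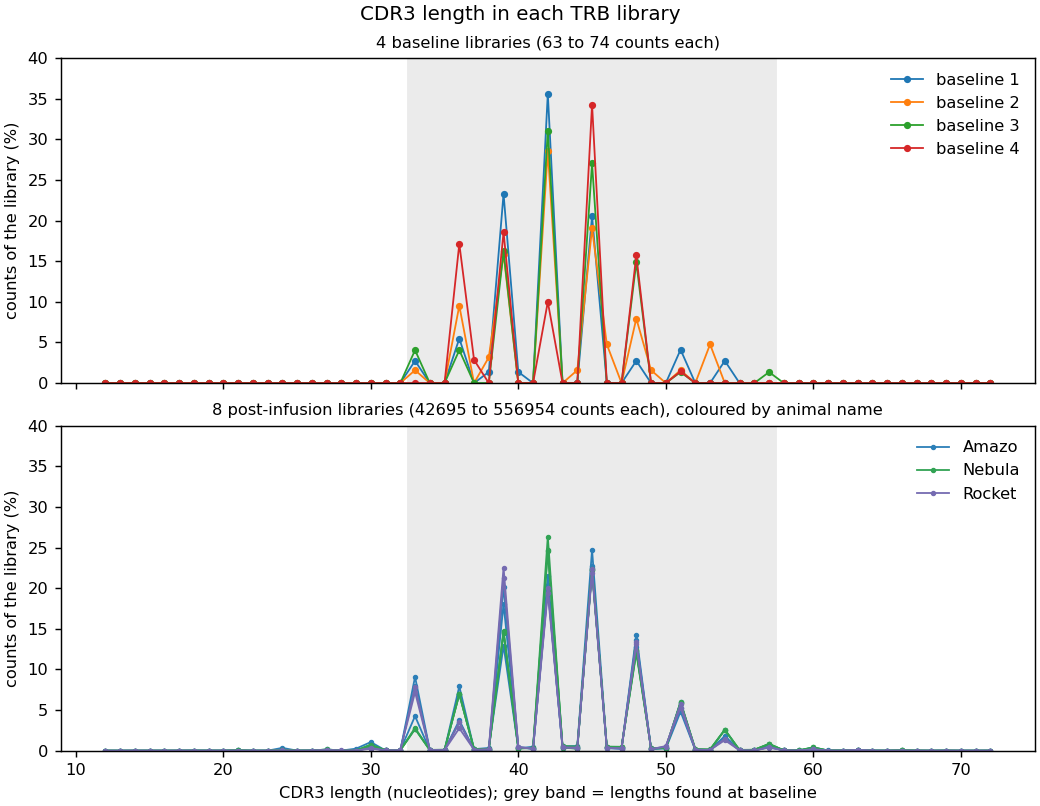
Percent of each library's counts (y axis) at each CDR3 length from 12 to 72 nucleotides (x axis), with 1 line per library, the 4 baseline libraries above and the 8 post-infusion libraries below. Both groups peak at 39 to 45 nucleotides, and lengths outside the grey band (33 to 57 nucleotides) were found after infusion only, at low percentages.

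The mean CDR3 length was 42.1, 42.7, 42.9 and 42.4 nucleotides in baseline 1 to 4. After infusion it ran from 42.98 (Amazo day +3) over a median of 43.5 to 44.2 nucleotides (Nebula day -5), so the groups did not overlap, although the closest libraries lay at 42.93 and 42.98. The 4 baseline libraries averaged 42.5 ± 0.362 (SD, n = 4) and the 3 animal names 43.5 ± 0.427 (SD, n = 3), a difference of 0.967 nucleotides. An exact two-sided permutation test gave p = 0.0571, the smallest that 4 against 3 allows, and 0.171 after Benjamini-Hochberg adjustment over the 6 measures tested. With the 8 libraries as separate samples the difference was 1.00 (exact permutation p = 0.00404, the smallest for 4 against 8, adjusted 0.0121), a test that counts libraries with shared clones as independent.

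Rare clonotypes and the summary used bore on this difference. The study states a threshold of 0.5% of a library, which removes no baseline clonotype because 1 count already exceeds it. With only the larger post-infusion clonotypes kept in this way, the difference was -0.255 nucleotides, and by medians of all clonotypes it was -0.75. Among productive CDR3s, the mean was 42.2, 42, 42.9 and 42.5 nucleotides at baseline and 42.5 to 43.4 after infusion, so the groups overlapped. When 63 counts were drawn 1000 times from each post-infusion library, the central 95% of draws reached from 41.3 to 42.3 nucleotides at its lower end and from 45.4 to 47.0 at its upper end. Of the 32 pairs of 1 baseline and 1 post-infusion library, 2 had a baseline mean below that range and 0 above it. Such draws cover counting error only, and the 32 pairs are not independent because post-infusion libraries share repertoires.

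At full depth, the spread of lengths differed more than the mean. The SD of CDR3 length over the counts of a library was 4.08, 4.398, 4.15 and 4.28 nucleotides in baseline 1 to 4 and 7.33 to 9.79 after infusion, with a median of 8.22. The post-infusion libraries all lay above every baseline library. The group means were 4.23 ± 0.140 (SD, n = 4) and 8.43 ± 0.399 (SD, n = 3), a difference of 4.21 nucleotides with an exact two-sided permutation p = 0.0571 (adjusted 0.171), and with 8 libraries 4.24 (exact permutation p = 0.00404, adjusted 0.0121). Much of this came from rare lengths. Over productive CDR3s the SD ranged from 3.78 to 4.24 in the baseline libraries and from 5.06 to 5.34 in the others, and with lengths of 33 to 57 nucleotides only, a choice made after the data were seen, it was 4.08 to 4.398 and 4.76 to 5.06. With post-infusion clonotypes of at least 0.5% against all baseline clonotypes, the difference was -0.252 nucleotides. At 63 counts, the median SD of the draws was 5.30 (Nebula day -4) to 5.92 nucleotides (Nebula day 0), against 7.33 to 9.79 at full depth. The mean SD of the same draws was 6.51 (Nebula day -4) to 8.69 nucleotides (Nebula day -5). Medians and means both lay above every baseline SD. A baseline SD fell below the central 95% of draws in 18 of 32 pairs, and baseline 1 did so for all 8 post-infusion libraries.

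Baseline CDR3s ran from 33 to 57 nucleotides, and these ends are shown because they bound the range.
Shortest, baseline 1, TRBV28 and TRBJ2-7, 1 count: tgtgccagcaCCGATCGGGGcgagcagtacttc
Longest, baseline 3, TRBV9 and TRBJ2-6, 1 count: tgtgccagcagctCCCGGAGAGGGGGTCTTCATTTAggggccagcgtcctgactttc
After infusion the lengths ran from 12 to 284 nucleotides. CDR3s of more than 57 nucleotides took 0.821% to 1.70% of counts, and those of fewer than 33 took 0.471% to 2.05%. Neither class was seen in the 280 baseline counts, and 0 of 280 allows a share of up to 1.07%. For the long class 5 of the 8 post-infusion libraries do not exceed this limit, and for the short class 5 of the 8. The limit pools the baseline libraries and treats their counts as independent, although the 280 counts come from 165 clonotypes. Draws of 63 counts held no CDR3 of more than 57 nucleotides in 35.1% to 58.5% of cases, and none of either class in 10.4% to 39.6%.

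Many CDR3s of more than 57 nucleotides after infusion shared their end. Between 34.2% (Nebula day -4) and 58.9% (Rocket day -5) of their counts ended in the same 60 bases, with a final stretch assigned to TRBJ1-3. That is 0.351% to 0.923% of all counts of a library, in 82 to 377 clonotypes of 67 to 284 nucleotides, and 0 of these clonotypes was productive in any library. Of all counts over 57 nucleotides, 29.2% to 50.2% were productive. A clonotype with this tail begins, in 8.54% to 15.8% of cases, with the whole of an ordinary CDR3 found in the same library. The largest of Amazo day -5 is shown with the 60 shared bases in capitals, beside the ordinary clonotype that it begins with, whose middle part is in capitals. Both were chosen after their values were seen.
With the tail, 260 counts, 126 nucleotides: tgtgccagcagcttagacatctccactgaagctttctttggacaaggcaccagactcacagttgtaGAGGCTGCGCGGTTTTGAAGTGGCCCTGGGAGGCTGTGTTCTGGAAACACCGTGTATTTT
Ordinary, 11994 counts, 39 nucleotides: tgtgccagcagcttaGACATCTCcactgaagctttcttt
The ordinary clonotype, of TRBV9 and TRBJ1-1, took 3.44% of the library and the one with the tail 0.0747%. The tail was found in 0 of the 165 baseline clonotypes.

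**Figure D2:**
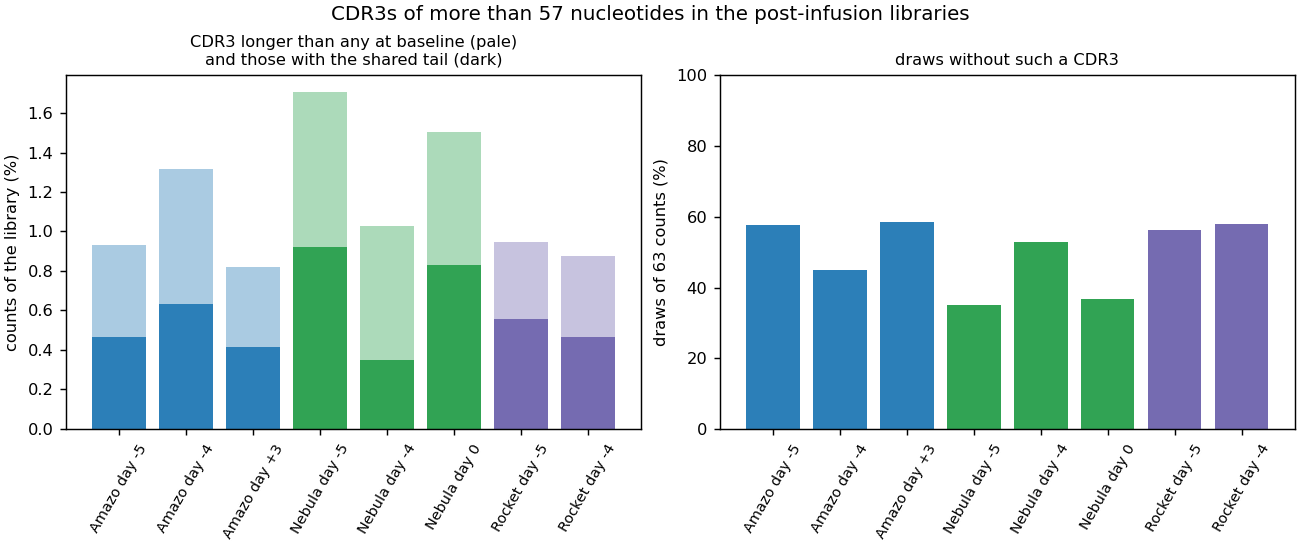
Left, percent of each post-infusion library's counts in CDR3s of more than 57 nucleotides (whole bar) and in those that end in the shared 60 bases (dark part). Right, percent of 1000 draws of 63 counts that held no CDR3 of more than 57 nucleotides, which was 35.1% to 58.5%.

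The parts of the productive junction overlapped between the groups. The V part averaged 12.9, 13.2, 12.7 and 11.9 nucleotides in baseline 1 to 4 and 12.7 to 13.1 after infusion. The stretch between V and J averaged 11.7, 11.98, 12.5 and 13.2 nucleotides at baseline and 12.04 to 13.4 after infusion. The J part averaged 17.5, 16.8, 17.7 and 17.4 nucleotides against 16.8 to 17.8, and the matched D stretch 7.55, 7.21, 7.55 and 7.70 nucleotides against 7.30 to 7.78. These 4 averages were not tested.

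Productive CDR3s made up most counts in both groups. They took 97.3% (95% Wilson interval 90.5 to 99.2), 84.1% (73.2 to 91.1), 100% (95.1 to 100) and 97.1% (90.2 to 99.2) in baseline 1 to 4, and 93.8% to 96.0% after infusion, with a median of 95.4%. Intervals cover counting error only, since PCR copies are not independent molecules. Baseline 2 lay below every post-infusion library, and the other 3 lay above all of them. The means were 94.6% ± 7.13 (SD, n = 4) and 95.1% ± 0.568 (SD, n = 3), a difference of 0.497 percentage points with an exact two-sided permutation p = 0.914 (adjusted 0.914). Without baseline 2 the difference was -3.005 points (exact permutation p = 0.1, the smallest that 3 against 3 allows), so its direction rested on that library. With clonotypes of at least 0.5% it was 5.37 points (exact permutation p = 0.229).

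Of the 165 baseline clonotypes, 9 were not productive, with 14 counts, and 6 of them with 10 counts were in baseline 2. All 9 were out of frame, and the largest of them is the baseline 2 sequence shown above. Out-of-frame CDR3s took 2.74%, 15.9%, 0% and 2.86% of counts in baseline 1 to 4 and 3.49% to 5.09% after infusion. The 15.9% of baseline 2 lay above the central 95% of draws of 63 counts from each of the 8 post-infusion libraries. In-frame CDR3s with a stop codon were 0 of 280 counts at baseline, which by the same pooled limit allows a share of up to 1.07%. They took 0.494% to 1.14% of counts after infusion. Nebula day -5, at 1.14%, exceeded this limit, and the next highest was Nebula day 0 at 1.04%. Apart from Nebula day -5, the post-infusion libraries could therefore not be set apart from baseline at this depth.

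**Figure D3:**
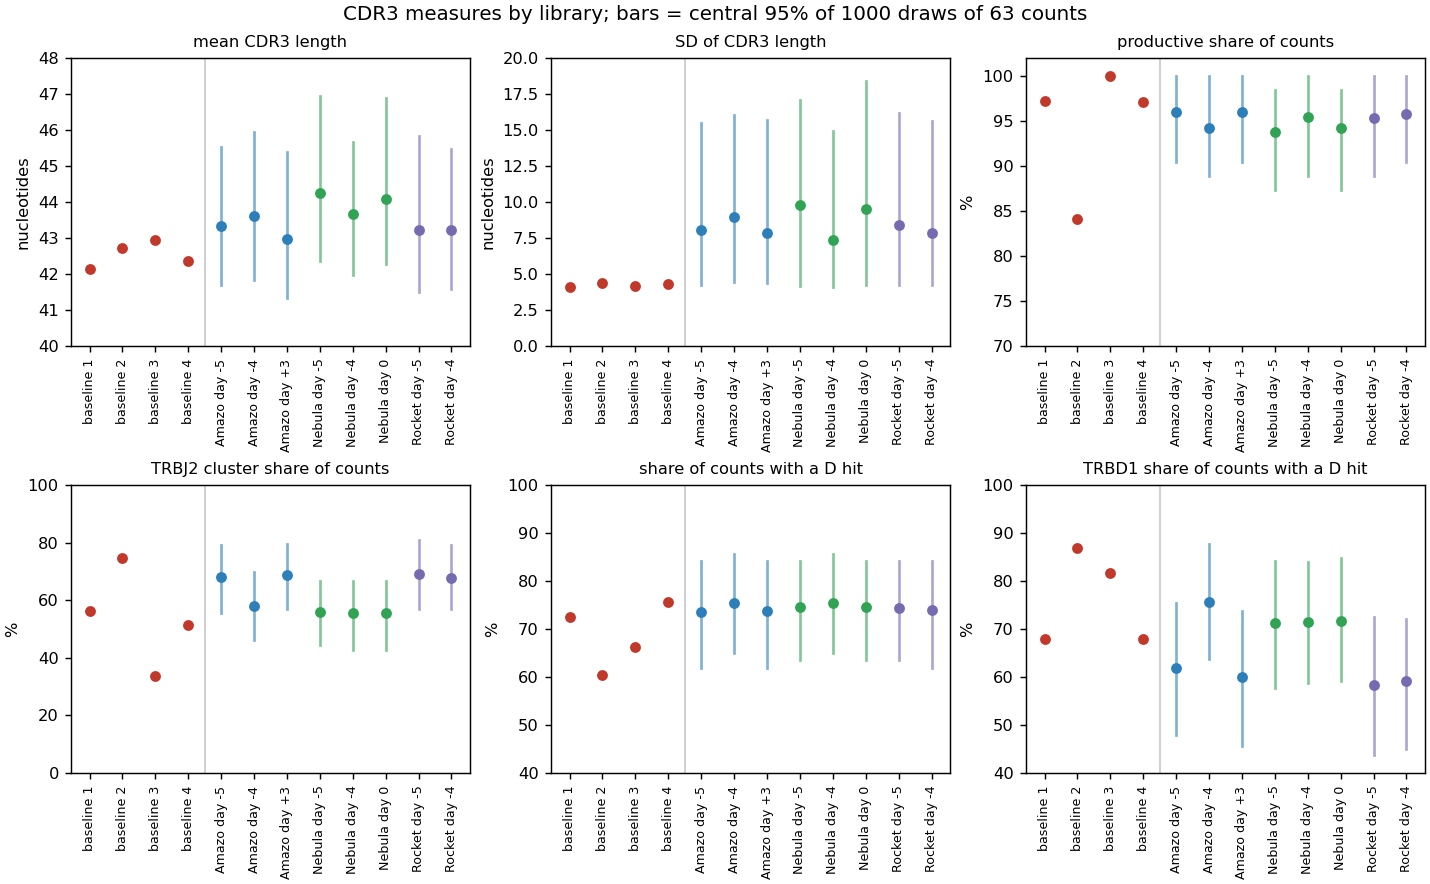
The 6 measures in each library (points; y axes in nucleotides or percent of counts), with the 4 baseline libraries in red and bars for the central 95% of 1000 draws of 63 counts from each post-infusion library. The baseline SDs of length lie near or under the lower ends of the bars (4.09 to 4.44 nucleotides), and baseline 2 lies under the bars for the productive share.

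The TRBJ2 cluster, which lies downstream of TRBD2, took 56.2% (95% Wilson interval 44.8 to 67.0), 74.6% (62.7 to 83.7), 33.8% (24.0 to 45.1) and 51.4% (39.95 to 62.8) of counts in baseline 1 to 4. After infusion it took 55.5% to 58.0% in the Nebula libraries and the library labelled Amazo day -4, and 67.9% to 69.2% in the other 4. The baseline libraries spread on both sides of the post-infusion range. The means were 54.0% ± 16.8 (SD, n = 4) and 63.02% ± 6.63 (SD, n = 3), and the difference of 9.03 points did not exceed the spread between libraries (exact two-sided permutation p = 0.514, adjusted 0.617). Baseline 3 lay below the central 95% of draws from all 8 post-infusion libraries. Leaving out 1 library or animal name at a time gave differences from 2.29 (without baseline 3) to 15.9 points (without baseline 2), and clonotypes of at least 0.5% gave 0.9504 points (exact permutation p = 0.914).

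Single J genes were tested next. Of 13 J genes tested with edgeR on summed counts, 0 passed an adjusted p of 0.05 in either direction (0% of those tested, higher and lower), 0 had an unadjusted p below 0.05, and DESeq2 called 0 with 2 unadjusted. The smallest adjusted p by edgeR was 0.485. TRBJ2-3, TRBJ2-7 and TRBJ1-2 had the largest baseline means, at 11.4% ± 2.21, 11.1% ± 4.13 and 9.70% ± 6.51 (SD, n = 4). After infusion TRBJ2-1 led at 14.5% ± 5.22, followed by TRBJ2-3 at 13.2% ± 4.97 and TRBJ2-7 at 9.74% ± 2.61 (SD, n = 3). TRBJ2-1 took 5.48%, 17.5%, 5.41% and 8.57% in baseline 1 to 4 and 8.56% to 19.7% after infusion, so the groups overlapped (log2 fold change 0.69 ± 0.47 SE, adjusted p = 0.511 by edgeR).

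In no J gene did the 4 baseline libraries all lie above the 8 post-infusion libraries (0% of 13), and in 1 gene they all lay below (7.69% of 13). That gene was TRBJ2-2, named because of this count and not by the rule, with 4.11%, 6.35%, 4.05% and 1.43% at baseline, 11 counts in all, and 6.83% to 9.14% after infusion. Its log2 fold change was 1.04 ± 0.57 SE (adjusted p = 0.485 by edgeR). Of the 6 TRBJ1 genes, 4 had a lower mean share after infusion, and of the 7 TRBJ2 genes, 4 had a higher one.

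**Figure D4:**
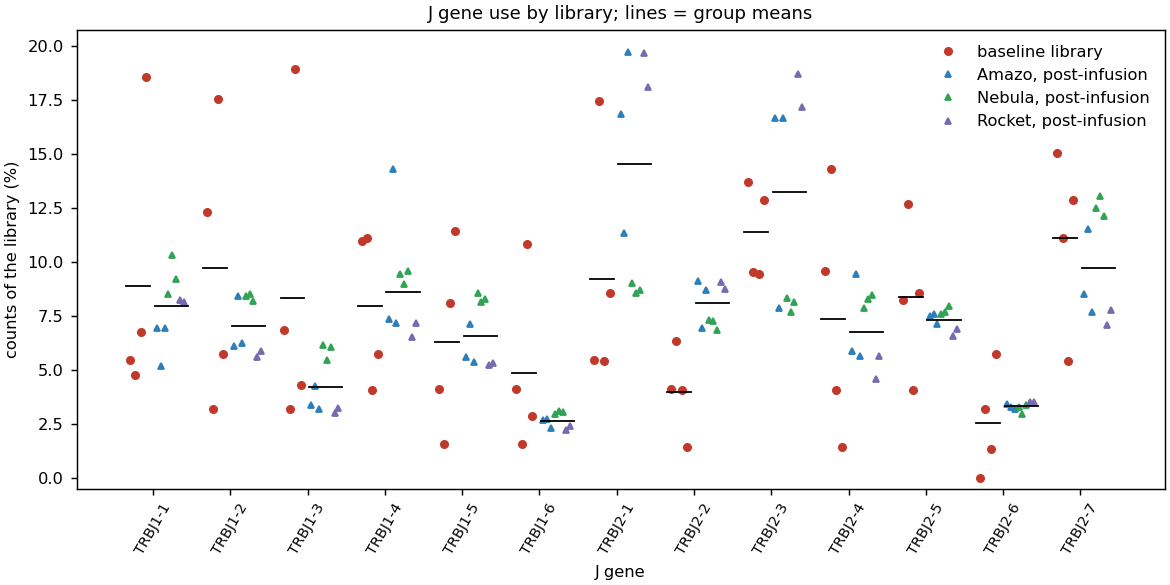
Percent of counts (y axis) assigned to each J gene (x axis) in each library, with baseline libraries as circles, post-infusion libraries as triangles coloured by animal name, and lines for the means of 4 libraries and of 3 animal names. Circles and triangles overlap for each of the 13 genes except TRBJ2-2, where the circles lie at 1.43% to 6.35% and the triangles at 6.83% to 9.14%.

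A D segment was assigned to 72.6%, 60.3%, 66.2% and 75.7% of counts in baseline 1 to 4 and to 73.6% to 75.5% after infusion. Baseline 1, 2 and 3 lay below every post-infusion library, and baseline 4 lay above them. The means were 68.7% ± 6.85 (SD, n = 4) and 74.5% ± 0.355 (SD, n = 3), a difference of 5.77 points (exact two-sided permutation p = 0.229, adjusted 0.343). Without baseline 2 it was 2.97 points, and with clonotypes of at least 0.5%, a threshold that acts on the post-infusion libraries alone, 13.8 points (exact permutation p = 0.286). At 63 counts the central 95% of draws began at 61.9% to 65.1% and ended at 84.1% to 85.7%, so the 60.3% of baseline 2 was the single value below it. Productive junctions without a D hit had a shorter stretch between V and J than those with one in every library. It was 7.95 to 10.1 against 13.2 to 14.3 nucleotides at baseline and 7.50 to 9.28 against 13.6 to 14.8 after infusion. A D hit needs matching bases in that stretch, so this direction follows from how D is assigned and is not a separate result.

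Among counts with a D hit, TRBD1 took 67.9%, 86.8%, 81.6% and 67.9% in baseline 1 to 4, and 58.4% to 75.7% after infusion, with a median of 66.6%. Baseline 2 and 3 lay above all post-infusion libraries, while baseline 1 and 4 lay within their range. The means were 76.1% ± 9.66 (SD, n = 4) and 65.4% ± 6.31 (SD, n = 3), a difference of -10.7 points (exact two-sided permutation p = 0.229, adjusted 0.343), and per shared repertoire it was -7.09 points (exact permutation p = 0.343). Hits tied between TRBD1 and TRBD2 were counted for the first one listed, and such ties held 13.2% to 26.4% of these counts at baseline and 19.6% to 31.9% after infusion.

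In every library TRBD2 took a smaller share of D hits with TRBJ1 than with TRBJ2. Hits of TRBD2 with TRBJ1, which the order of the segments does not normally give, were still found in both groups. Tied D hits went to the first one listed, so these shares depend in part on assignment. TRBD2 was assigned to 16.7%, 0%, 0% and 11.5% of the counts that joined a D segment to TRBJ1 in baseline 1 to 4, from 24, 12, 26 and 26 counts. After infusion the share was 8.54% to 13.9%. Where a D segment joined TRBJ2, TRBD2 took 44.8%, 19.2%, 39.1% and 51.9% at baseline and 35.8% to 51.5% after infusion. The groups overlapped where D joined TRBJ2, and 0 of 26 counts in baseline 3 still allows up to 12.9% by the Wilson interval.

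V families are groups of V genes with similar sequence, and each brings its own pair of germline-encoded loops that mostly touch the MHC molecule. TRBV6 led at baseline and took a smaller share after infusion. TRBV9 had 3 counts at baseline and took 10.1% to 13.6% of the 4 post-infusion libraries that share the Rocket repertoire. In the other 4 it took 2.94% to 3.53%. These differences did not pass the test between 4 baseline libraries and 3 animal names. Of 20 V families tested with edgeR, 0 passed an adjusted p of 0.05 in either direction (0% of those tested, higher and lower), and 6 had an unadjusted p below 0.05. DESeq2 called 5, and edgeR called 5 with the 8 libraries as separate samples and 0 with 1 sum per shared repertoire.

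TRBV6 took 24.7%, 14.3%, 27.03% and 18.6% of counts in baseline 1 to 4. After infusion it took 3.51% (Rocket day -5) to 13.8% (Nebula day -4), with a median of 7.56%. All baseline libraries lay above all post-infusion libraries, baseline 2 by the smallest margin. The means were 21.1% ± 5.79 (SD, n = 4) and 8.03% ± 4.75 (SD, n = 3), 2.63 times as high at baseline (log2 fold change -1.42 ± 0.62 SE, adjusted p = 0.102 by edgeR). The 60 baseline counts were spread over 34 clonotypes. With each clonotype counted once, the share was 24.5%, 16.3%, 25.6% and 13.3% at baseline and 8.15% to 13.3% after infusion, so the lowest baseline and highest post-infusion libraries met. In the draws of 63 counts, the baseline share exceeded the central 95% in 24 of 32 pairs, and baseline 1 and 3 did so against all 8 libraries. These 8 libraries hold 3 repertoires, so the pairs are not independent, and the draws cover counting error only.

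The hits to TRBV6 were of another kind in the 2 groups. Between 60% and 92.3% of the baseline TRBV6 counts were tied between V genes of the family, against 0.551% to 2.90% after infusion. Counts tied between V families were 1.43% to 5.48% of a baseline library and at most 0.0328% of a post-infusion library. With ties between families left out, 0 families passed and the TRBV6 log2 fold change was -1.44 ± 0.64 SE. The part of the shorter V match in the TRBV6 share was otherwise not tested.

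TRBV10 took 9.59%, 11.1%, 5.41% and 7.14% of counts in baseline 1 to 4 and 1.89% to 3.78% after infusion, with a median of 2.61%. Every baseline library again lay above every post-infusion library. The means were 8.31% ± 2.54 (SD, n = 4) and 2.75% ± 0.871 (SD, n = 3), with a log2 fold change of -1.59 ± 0.72 SE (adjusted p = 0.102 by edgeR). The 23 baseline counts were in 15 clonotypes, and the baseline share exceeded the central 95% of draws in 20 of 32 pairs. With each clonotype counted once, TRBV10 and TRBV6 passed (adjusted p = 0.0463 by edgeR for both). TRBV3, named because it passed there and not by the rule, was higher after infusion in that setting (log2 fold change 1.75 ± 0.61 SE, adjusted p = 0.0463 by edgeR). In the main fit its adjusted p was 0.247 by edgeR.

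TRBV24 took 8.22%, 3.17%, 0% and 20% in baseline 1 to 4 and 0.806% to 4.35% after infusion. The groups overlapped, since baseline 3 held none. Its 22 baseline counts came from 5 clonotypes, among them the largest clonotypes of baseline 1 and 4 shown above. The log2 fold change was -2.10 ± 0.73 SE (adjusted p = 0.0503 by edgeR), and without baseline 4 it was -1.06 (adjusted p = 0.545 by edgeR). TRBV24 passed by edgeR with productive clonotypes (adjusted p = 0.0426), 8 separate libraries (0.0321), without baseline 3 (0.0169) and without Nebula (0.0197). With each clonotype counted once it was -0.75 (adjusted p = 0.751 by edgeR).

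TRBV9 took 0%, 1.59%, 2.70% and 0% in baseline 1 to 4, which is 3 counts in all, and 2.94% to 13.6% after infusion, with a median of 6.84%. It took 10.1% to 13.6% in the 4 libraries that share the Rocket repertoire and 2.94% to 3.53% in the other 4. The post-infusion libraries all lay above the baseline libraries. The means were 1.07% ± 1.32 (SD, n = 4) and 7.96% ± 4.72 (SD, n = 3), with an adjusted p = 0.0503 by edgeR. TRBV9 passed with TMM scaling (adjusted p = 0.0244), productive clonotypes (0.0361), 8 separate libraries (0.0321), without baseline 3 (0.0241) and without Nebula (0.0197), all by edgeR, and by DESeq2 (0.0179). It did not pass with 1 sum per shared repertoire (adjusted p = 0.197 by edgeR). A fitted fold change against so few counts depends on the prior count and is not given as a size. With each clonotype counted once, TRBV9 took 0%, 2.33%, 4.65% and 0% at baseline and 2.22% to 4.00% after infusion, so the groups overlapped (adjusted p = 0.543 by edgeR).

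The other families with the largest mean shares overlapped between the groups. TRBV23 took 6.85%, 14.3%, 4.05% and 14.3% in baseline 1 to 4 and 4.74% to 11.8% after infusion. TRBV7 took 10.96%, 7.94%, 18.9% and 0% against 8.21% to 10.3%, and TRBV5 10.96%, 4.76%, 12.2% and 1.43% against 6.56% to 15.0%. TRBV12 took 1.37%, 0%, 2.70% and 8.57% at baseline and 4.60% to 11.2% after infusion. The adjusted p by edgeR was 0.909 for TRBV23, 0.970 for TRBV7, 0.911 for TRBV5 and 0.247 for TRBV12. Relative to the median of all 20 families, their log2 fold changes with total counts, TMM and DESeq2 were -0.42, -0.34 and -0.43 for TRBV23 and -0.13, -0.15 and -0.21 for TRBV7.

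Over the 20 families, the 4 baseline libraries all lay above the 8 post-infusion libraries in 2 (10% of those tested, TRBV6 and TRBV10) and all below in 2 (10%, TRBV9 and TRBV4). TRBV4, named because of this count and not by the rule, took 2.74%, 4.76%, 0% and 0% at baseline, 5 counts in all, and 6.47% to 8.53% after infusion. Its adjusted p was 0.102 by edgeR, 0.0321 with 8 separate libraries and 0.197 with 1 sum per shared repertoire, and 0.00870 by DESeq2, the smallest of that tool. The median log2 fold change over all 20 families was 0.10 with total-count scaling, 0.55 with TMM and 0.69 with DESeq2, a shift common to the families. Relative to the median, in the same order, TRBV6 stood at -1.52, -1.49 and -1.63 and TRBV10 at -1.69, -1.66 and -1.68. TRBV9 and TRBV4 stood above the median with each scaling, but rest on 3 and 5 baseline counts, so no size is given. The number of V families seen was 14 to 17 per baseline library. Draws of 63 counts from the post-infusion libraries held 17.5 to 18.2 on average. The central range of these draws began at 14 to 15 families. A baseline library lay below that range in 6 of 32 pairs and above it in 0. The draws were matched for counts and not for clonotypes, so they cannot decide whether the baseline libraries held fewer families.

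**Figure D5:**
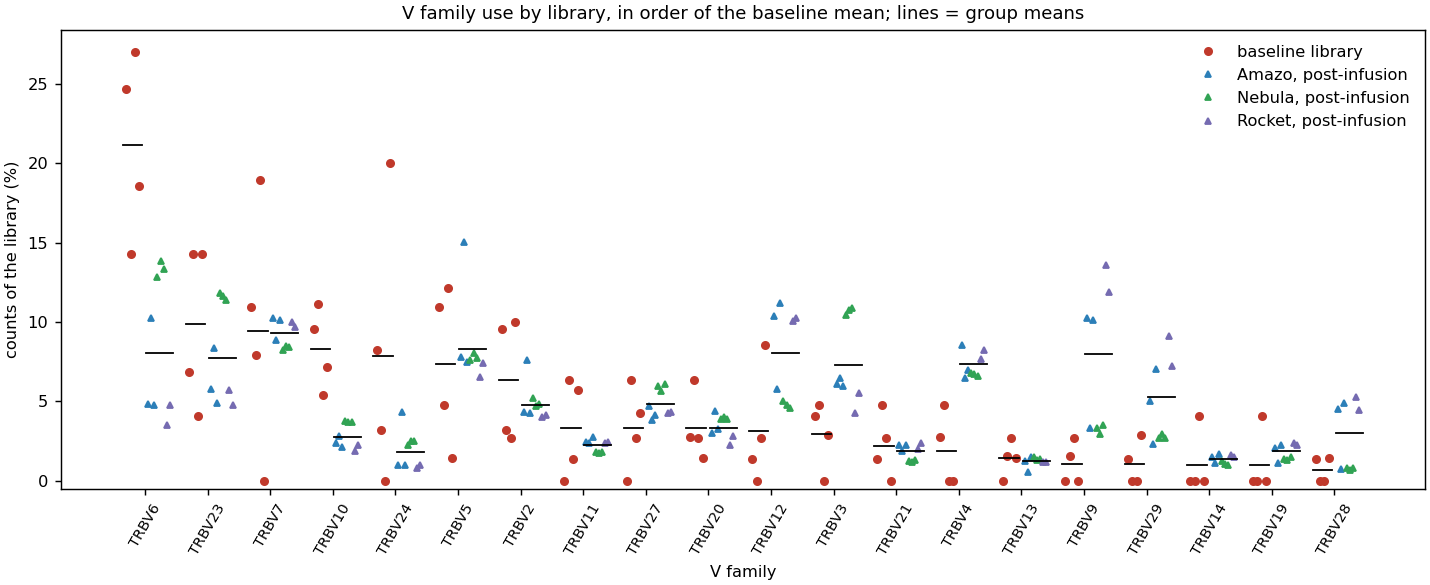
Percent of counts (y axis) assigned to each of the 20 tested V families (x axis, in order of the baseline mean) in each library, with baseline libraries as circles, post-infusion libraries as triangles coloured by animal name, and lines for the means of 4 libraries and of 3 animal names. The circles lie above the triangles for TRBV6 and TRBV10 and under them for TRBV4 and TRBV9.

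Few baseline junctions were also present in the post-infusion libraries, which carry other animal names. Post-infusion libraries of different repertoires shared little as well, by another measure (0.0392% to 0.704% of counts in common). Of the 156 productive baseline clonotypes, 1 had the same nucleotide CDR3 in a post-infusion library, a junction of TRBV7 and TRBJ1-3 with a single base between the V and J parts. It is shown for that short middle part.
Baseline 1, 1 count, and Rocket day -5, 10 counts: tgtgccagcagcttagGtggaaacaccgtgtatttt
As amino acids, 15 of 152 distinct productive baseline CDR3s (9.87%) were found in at least 1 post-infusion library, with 8 from baseline 1, 4 from baseline 2, 1 from baseline 3 and 2 from baseline 4. The 16 baseline clonotypes behind them averaged 39.6 nucleotides, and the other 140 averaged 42.8. The post-infusion libraries held 218161 clonotypes in all, counted per library, and this comparison was not tested. Between baseline libraries, 1 nucleotide CDR3 was shared, of 45 nucleotides with TRBV2 and TRBJ2-3. It had 1 count in baseline 3 and 1 count in baseline 4. Whether these 2 libraries, used here as separate samples, are independent was not tested.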

How the data were processed

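TRB transcripts of blood mononuclear cells were measured in 12 libraries (4 baseline, 8 post-infusion). Per the labels, poly-A RNA was copied with a template-switching kit and VDJ amplicons were read on a MiSeq, and the authors used Trimmomatic and MiXCR with rhesus TRB segments. The build and MiXCR version are not given in the sources used here. The deposited count per clonotype is a whole number that was not normalized. The deposited fraction equalled count over total in all 12 files. The deposited score of lowest CDR3 base quality served as an alternative filter (at least 30). The methods describe barcode collapsing and a 0.5% threshold, but the deposited post-infusion tables hold clones far below it.

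V, D and J were the first hit, and productive meant no frame shift or stop in the CDR3 amino acids. Depth was matched by 1000 random draws of 63 counts per post-infusion library. The 6 measures were compared by exact two-sided permutation tests (4 libraries against 3 animal names) with Benjamini-Hochberg adjustment. Whether the samples of a group are independent is not given beyond their animal names, so p-values measure the spread between these samples. Among them, Amazo and Rocket share clones. Counts per V family and J gene were tested with edgeR 4.0.16 (quasi-likelihood, R 4.3.3, total-count scaling, group mean shares averaging at least 1%, Benjamini-Hochberg, adjusted p below 0.05), with DESeq2 1.42.0 as an alternative. Both kinds of test were also run on simulated data. The simulated samples were independent and held no shared clones, so these runs do not show how the tests behave on the present libraries. Python 3.11.15, numpy 2.4.6, pandas 2.3.3, scipy 1.17.1 and matplotlib 3.10.9 were used.

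Named were the 5 V families and 3 J genes with the largest mean share in each group, any called, and TRBD1 and TRBD2. Sequences shown were the largest clonotype of each baseline and day -5 library, plus those said to be chosen after their values were seen, the 2 ends of the baseline length range and the shared junction. The members and lists were chosen with earlier results of these data known. Other alternatives were each clonotype counted once, single time points, thresholds on clonotype size, productive clonotypes, single hits, TMM, no filter, medians, and leaving out each library or animal name. Chromosome positions of the segments were not used here.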

Additional observations from a re-analysis of the deposited data

Results flagged for a closer look

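In 36 groups of libraries (the 6 measures, 8 V families and 4 J genes named by the rule, at baseline and after infusion), 1 library stood far from the others of its group. TRBV5 took 15.0% of counts in the library labelled Amazo day -4, against 6.56% to 8.08% in the other 7 post-infusion libraries, and the gap was 0.821 of the whole range. With each clonotype counted once it took 8.85% there, within the 7.97% to 10.4% of the others. By chance about 1 in 20 groups has such a library, and 7 of these 8 libraries share repertoires within 2 sets.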

How the results depend on the processing

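Across 384 recomputed values, 339 kept their direction and their side of the threshold or, for counts, their size. For the measures compared by permutation, the smallest p that 4 against 3 allows is 0.0571, above the threshold of 0.05. Leaving out samples does not lower that limit. Except with 8 libraries as separate samples, these measures could therefore change in direction only, and their side of the threshold was fixed beforehand. The difference in mean CDR3 length turned to -0.255 and that in its SD to -0.252 nucleotides with clonotypes of at least 0.5%, which leaves out none at baseline, and the difference in medians was -0.75. With 8 libraries as separate samples, both passed (1.00 and 4.24 nucleotides). The productive share differed by -2.83 points with each clonotype counted once, and by -3.00464 (without baseline 2) to 2.29 (without baseline 3) points when samples were left out. V families called numbered 3 with each clonotype counted once, 5 with 8 libraries, 2 with productive clonotypes, 1 with TMM, 5 with DESeq2, and 0 to 3 when samples were left out, with 2 without baseline 3 and 3 without Nebula. The log2 fold change of TRBV23 turned to 0.083, 0.21 and 0.26, and that of TRBV7 to 0.11, 0.40 and 0.48, with each clonotype counted once, TMM and DESeq2. The TMM and DESeq2 values moved with the median of all families, against which both stayed negative. TRBJ2-3 turned to -0.026 with 1 sum per repertoire. Leaving out samples gave -0.18 to 0.53 for TRBV5, -0.45 to 0.56 for TRBV7 and -0.081 to 0.47 for TRBJ2-3. Apart from those of TMM and DESeq2, the causes were not tested. J genes called stayed at 0 under each alternative run, with 0 to 3 at an unadjusted p below 0.05. No paired analysis was possible because baseline and post-infusion libraries carry different animal names. At 63 to 74 counts, differences of a few percentage points could not be detected in a single baseline library.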
